A study of Arabidopsis thaliana with 16 samples.

Results

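Histone H3 is the core histone whose tail carries many of the marks that divide chromatin into active and silent parts. Arabidopsis makes it from a family of nearly identical genes. The H3.1 genes are expressed mainly in dividing cells and their protein is deposited as DNA replicates, whereas H3.3 is deposited independently of replication and is linked to transcribed genes. The loci described here are AT5G65360 and AT1G09200, both named H3.1 in the RefSeq gene table (assembly TAIR10.1), and AT1G13370, which is known as an H3.3-like variant gene and has no H3 name in that table. They were taken as the histone H3 loci with a probe assigned to them alone in the platform annotation, which gave 3 probes of the 3439 on the array and of the 692 assigned to 1 gene. In the gene order of that table AT5G65360 lies next to HTR11, another histone H3 gene.

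Total RNA of Arabidopsis thaliana, ecotype Columbia 0, was measured on 16 arrays, 8 labelled psag and 8 labelled WT. The psag plants are mutants without PSI-G, which is a membrane protein of photosystem I, the complex that passes electrons to ferredoxin in the thylakoid. The labels give no allele, tissue, age or light regime, and nothing in them tells whether a replicate is its own plant or culture. No probe of its own was assigned to the mutated gene, so the labels could not be checked through its transcript. In such bulk RNA, fewer cells of a type and less RNA per cell cannot be told apart.

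Deposited intensities ran on a linear scale from 0 to 100 and summed to 2314 to 3460 per array. The lowest sums, 2314 and 2367, were those of psag replicates 7 and 8, against 2967 or more on every other array. These arrays stood apart in other ways as well: averaged, they correlated at 0.819 to 0.852 with the remaining measurements, which correlated with each other at 0.934 to 0.980. The differences between genotypes are therefore also given without them. On each array 13.0% to 16.5% of the probes were listed at 0, but none of the 48 values of the H3 loci was 0.

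AT5G65360 was brighter in psag. Its intensity ran from 0.444 to 0.954 on the psag arrays, with a median of 0.578, and from 0.323 to 0.481 on the WT arrays, with a median of 0.413. All psag arrays except replicate 7 lay above the brightest WT array. The share of all probes that separate this far on single arrays was not computed. The mean intensity was 0.641 ± 0.172 in psag and 0.414 ± 0.0543 in WT (SD, n = 8 arrays each), a ratio of 1.55 before any normalization and of 1.66 without psag replicates 7 and 8.

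AT1G13370 varied widely within psag and little within WT. Its psag intensities ran from 0.227 to 3.06 with a median of 2.16, and its WT intensities from 2.06 to 2.77 with a median of 2.49. Within psag, replicates 1 to 4 lay between 2.60 and 3.06, inside or just above the WT range, replicates 5 and 6 were at 1.53 and 1.71, and replicates 7 and 8 were at 0.337 and 0.227. Psag replicates 5 to 8 were thus all dimmer than the dimmest WT array. Replicates 7 and 8 had the lowest intensity sums, and the share of all probes with such a separation was not computed.

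AT1G09200 overlapped between the genotypes throughout. It ran from 0.169 to 0.424 in psag, with a median of 0.250, and from 0.110 to 0.437 in WT, with a median of 0.252. In WT the dimmest arrays were replicates 3 and 4, at 0.110 and 0.145, and the brightest were replicates 7 and 8, at 0.437 and 0.433. In psag, replicates 1 to 4 were brighter, at 0.312 to 0.424, than replicates 5 to 8, at 0.169 to 0.188. Replicates 7 and 8 are the arrays with the lowest sums. After the normalization described below they no longer lay under replicate 4.

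**Figure D1:**
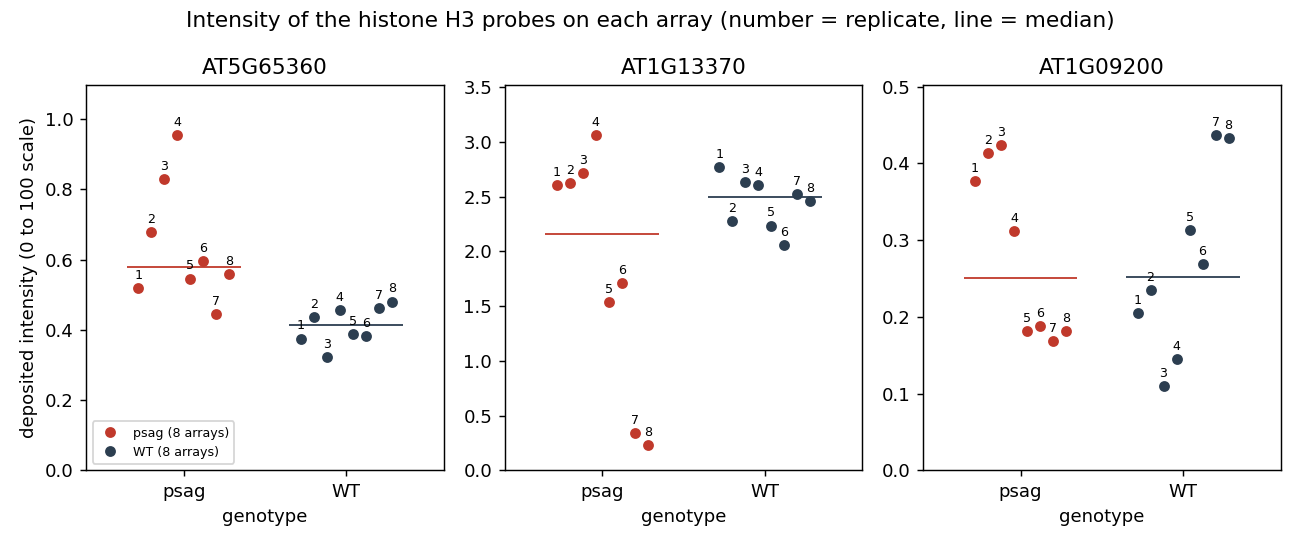
Deposited intensity (linear 0 to 100 scale, vertical axis) of the 3 histone H3 probes on every array, psag and WT side by side; each point is an array with its replicate number, and the line is the median of 8 arrays. For AT5G65360 all psag arrays except replicate 7 (0.444) lie above the brightest WT array (0.481), a separation whose share among all probes was not computed. For AT1G13370 psag replicates 7 and 8 lie far below all others, and for AT1G09200 the genotypes overlap.

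For the comparison of psag with WT, intensities were taken as log2(intensity + 0.0407), quantile normalized, and averaged over neighbouring replicates (1 and 2, 3 and 4, 5 and 6, 7 and 8), as in earlier work on these data. Over all probes, the deviations of neighbours from their group mean correlated at 0.45 to 0.73 in psag. In WT they correlated at only 0.32, -0.12, 0.09 and 0.54, so the averaging is weakly founded there. In psag the average was drawn towards the outlying replicates 7 and 8, so the other arrays can share a deviation without being repeats. Correlations of arrays that are not neighbours are not given here, so the psag values do not show that neighbours are repeats. The averaging left 4 measurements per genotype. Differences, written as psag minus WT, are on that scale, which understates the change of dim probes. They were tested with limma over all 3438 probes kept, with Benjamini-Hochberg adjustment and a threshold of 0.05.

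AT5G65360 had log2 values of -0.89, -0.33, -0.63 and -0.46 in psag, against -0.99, -1.19, -1.21 and -1.25 in WT. The psag measurements all lay above the WT measurements, as they did for 5.73% of all probes. The means were -0.58 ± 0.24 in psag and -1.16 ± 0.11 in WT (SD, n = 4 each). The difference was 0.58 ± 0.13 (SE), or 1.50-fold, with a 95% confidence interval of 1.20-fold to 1.86-fold. This did not pass after adjustment over the array (limma, adjusted p = 0.149, unadjusted p = 0.00321). The fit included probes listed at 0 on all arrays. With those probes left out, the unadjusted p was 0.00990 at the same difference (limma, adjusted p = 0.272). Without psag replicates 7 and 8 the difference was 0.54 ± 0.14 (SE; limma, adjusted p = 0.135).

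The call for AT5G65360 depended on what was counted as a replicate. With all 16 arrays as separate samples, as the labels number them, the difference was the same 0.58 with an SE of 0.11, and it passed (limma, adjusted p = 0.00360). In that fit 9.60% of all probes passed, and of the 3 H3 loci only AT5G65360 did. With neighbouring arrays kept as a random block, adjusted p was 0.0723 (limma).

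AT1G13370 had log2 values of 1.33, 1.43, 0.75 and -1.16 in psag, against 1.29, 1.29, 1.19 and 1.39 in WT. The first 2 psag measurements lay around the WT level, and the other 2 lay below all WT measurements, by far the most in replicates 7 and 8. The means were 0.58 ± 1.20 in psag and 1.29 ± 0.08 in WT (SD, n = 4 each). The difference of -0.71 ± 0.56 (SE) did not pass (limma, adjusted p = 0.665), and its 95% confidence interval ran from -2.04 to 0.63. Without psag replicates 7 and 8 the psag mean was 1.17 ± 0.37 (SD, n = 3), and the difference shrank to -0.12 ± 0.17 (SE; limma, adjusted p = 0.780).

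AT1G09200 had log2 values of -1.50, -1.65, -2.07 and -1.73 in psag, against -1.65, -2.42, -1.57 and -1.37 in WT. The psag measurements all fell inside the WT range. With means of -1.74 ± 0.24 in psag and -1.75 ± 0.46 in WT (SD, n = 4 each), the difference was 0.02 ± 0.25 (SE; limma, adjusted p = 1). Without psag replicates 7 and 8 it was 0.01 ± 0.29 (SE). The 95% confidence interval with all measurements, from -0.57 to 0.60, includes a difference as large as that of AT5G65360, so the data do not show that this gene was unchanged.

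In the limma fit 0 of the 3 H3 loci passed the adjusted threshold, against 11 of the 3438 probes, or 0.320%, of which 9 (0.262%) were higher in psag. At an unadjusted limma p under 0.05, 1 locus was higher in psag, against 7.27% of all probes. The 4 psag measurements lay above the 4 WT measurements for 1 locus, against 5.73% of all probes. Without psag replicates 7 and 8, 0 of the 3 loci passed, against 2.59% of all probes, and 1, AT5G65360, had an unadjusted limma p under 0.05, against 18.3% of all probes. The median difference of the 3 loci was 0.02. That of all probes was 0, a value largely set by the normalization and by probes listed at 0 on all arrays.

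Whether the H3 loci changed by unequal amounts was tested on the difference between their log2 values in each measurement, for the 3 possible pairings of loci, by permuting the genotype labels in all 70 possible groupings (exact two-sided test). The value of AT5G65360 minus that of AT1G13370 was -1.16 ± 1.29 in psag and -2.45 ± 0.15 in WT (SD, n = 4 each), a shift of 1.29 (exact permutation p = 0.0286, the smallest this design allows; adjusted over the 3 pairings, 0.0857). Leaving out psag replicates 7 and 8 gave a shift of 0.67 (exact permutation p = 0.0286 over 35 groupings). The shift of AT5G65360 against AT1G09200, the other H3.1 gene, was 0.56 (exact permutation p = 0.114, adjusted 0.171), with 1.16 ± 0.37 in psag and 0.59 ± 0.48 in WT (SD, n = 4 each). With those arrays left out it was 0.53 (exact permutation p = 0.171). AT1G09200 against AT1G13370 shifted by 0.72 (exact permutation p = 0.457, adjusted 0.457), and by 0.14 without psag replicates 7 and 8. None of the 3 shifts passed after adjustment, and no adjusted p could have fallen below 0.0286.

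Another 4 probes were assigned to several genes, all of them histone H3 loci, and are given as probes, since no single gene can be named from them. A probe that listed an H3 locus together with another kind of gene was not used. These probes were taken up after the results for the 3 single-gene loci were known. The probe shared by H3.1 loci (probe 3667) had log2 values of -0.34, -0.29, -0.18 and 0.04 in psag, against -0.81, -0.58, -0.50 and -1.20 in WT. As for AT5G65360, the psag measurements all lay above the WT measurements, which held for 5.73% of all probes. The difference was 0.58 ± 0.17 (SE), or 1.49-fold, and did not pass (limma, adjusted p = 0.228). Without psag replicates 7 and 8 it was 0.50 ± 0.18 (SE; limma, adjusted p = 0.228).

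The probes shared by H3.3 loci gave differing values. One of them (probe 2392) had 0.08, -0.19, 0.45 and 0.41 in psag, against 0.00, -0.12, -0.36 and -1.29 in WT on the log2 scale, so that psag replicates 3 and 4 fell within the WT range. Before normalization, all its psag arrays except replicate 7 (0.926) lay above its brightest WT array (0.949). The same held for AT5G65360 and for the probe shared by H3.1 loci, but the share of all probes that separate this far was not computed. The difference of probe 2392 was 0.63 ± 0.31 (SE; limma, adjusted p = 0.480), and 0.56 ± 0.35 (SE) without psag replicates 7 and 8. The other (probe 3127), which lists a subset of the same loci, differed by 0.01 ± 0.27 (SE; limma, adjusted p = 1) and by -0.22 without psag replicates 7 and 8. The probe shared by divergent H3 variant loci (probe 2995) averaged -1.45 ± 0.17 in psag and -1.31 ± 0.17 in WT (SD, n = 4 each), a difference of -0.14 ± 0.12 (SE; limma, adjusted p = 0.702), or -0.19 ± 0.12 (SE) with those arrays left out. Of the 7 H3 probes, 0 passed the adjusted limma threshold, and 2 had an unadjusted p under 0.05, AT5G65360 and the probe shared by H3.1 loci, against 12.7% of all probes in either direction. Because H3 coding sequences are so alike, a probe assigned to AT5G65360 or AT1G09200 can also pick up RNA of other H3.1 copies, and the part of such signal was not tested.

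**Figure D2:**
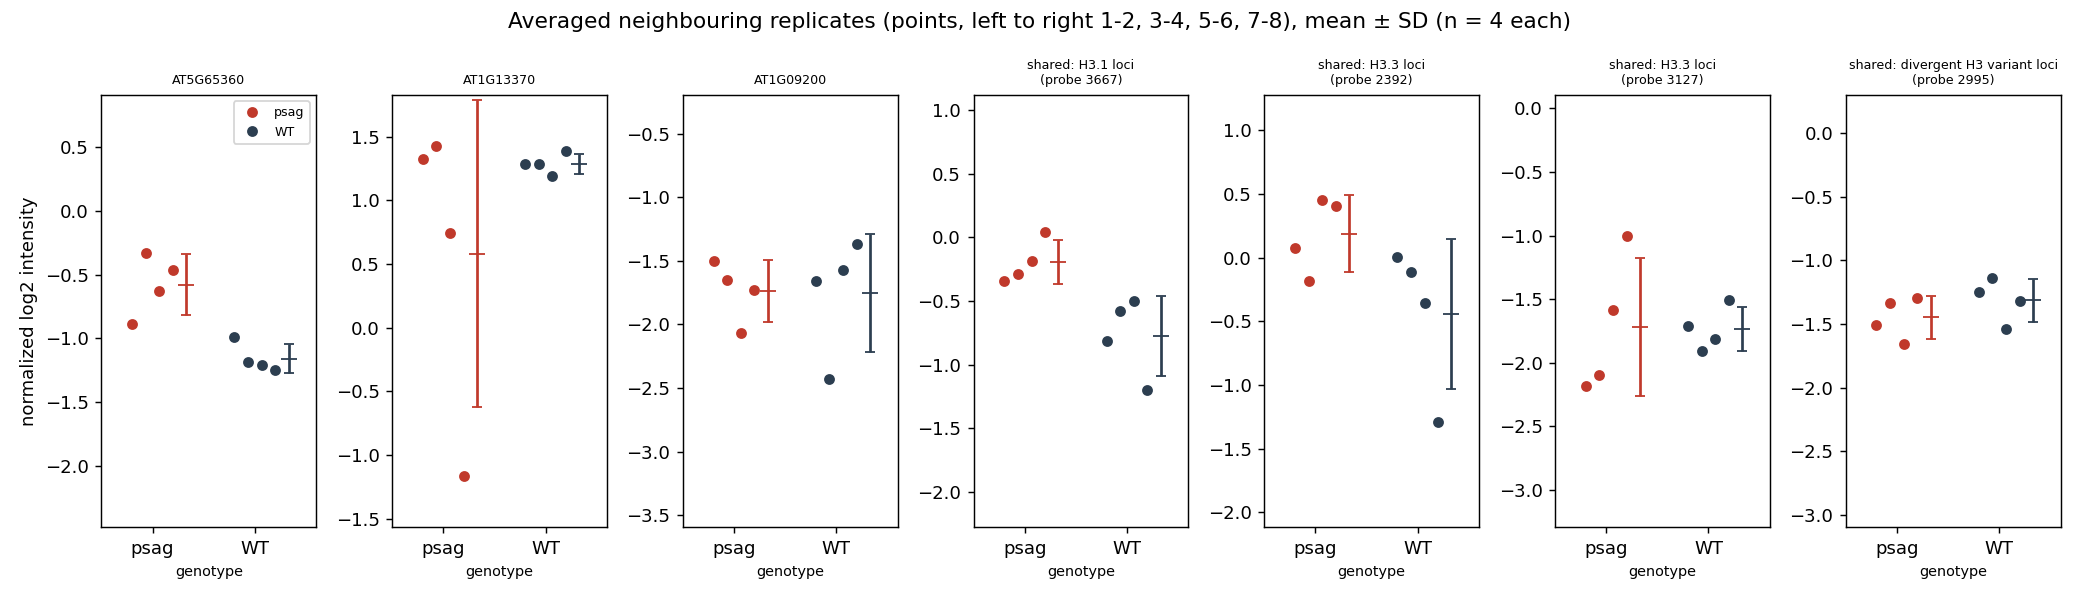
Normalized log2 intensity (vertical axis, each panel spanning the same number of log2 units) of the 3 single-gene histone H3 probes and the 4 probes shared by several H3 loci; points are the 4 measurements of psag and of WT, left to right replicates 1 and 2, 3 and 4, 5 and 6, and 7 and 8, and bars are mean ± SD. In these normalized averages, all psag points lie above all WT points for AT5G65360 and for the probe shared by H3.1 loci. This holds for no other probe shown. Over the whole array it holds for 5.73% of probes.

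**Figure D3:**
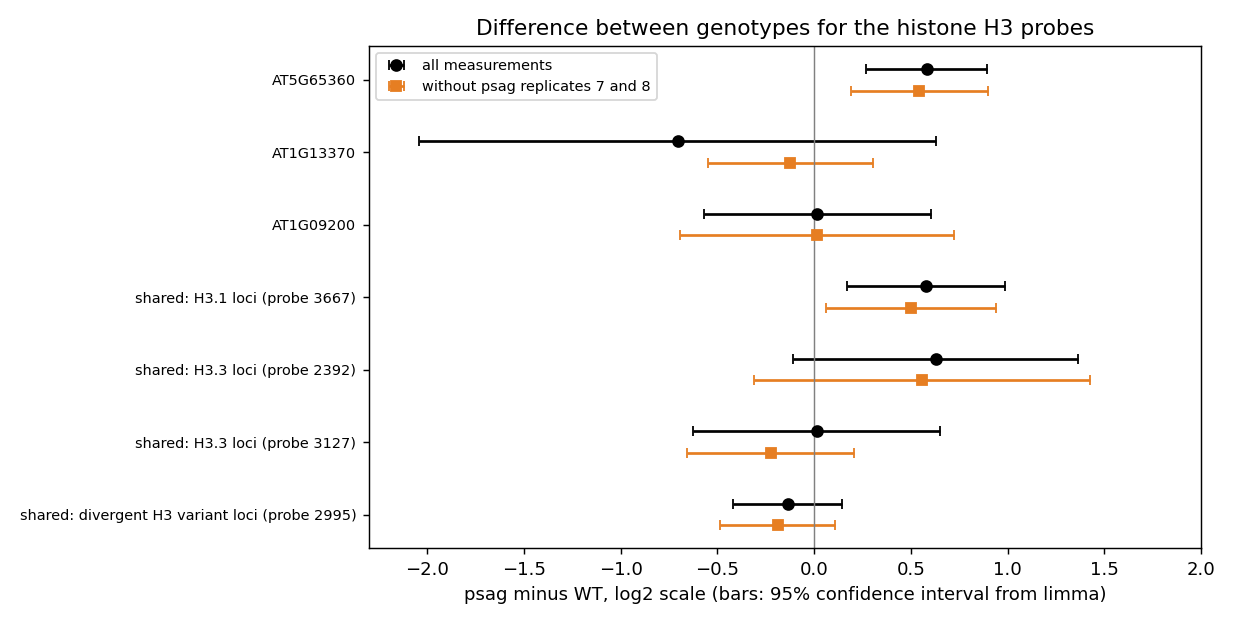
Difference psag minus WT on the log2 scale with its 95% confidence interval from limma (not adjusted for the number of probes) for the same 7 probes, with all measurements (circles) and without psag replicates 7 and 8 (squares). AT5G65360 is at 0.58 and 0.54, the probe shared by H3.1 loci at 0.58 and 0.50, and AT1G13370 is at -0.71 with all measurements and at -0.12 without these arrays.

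The loci differed in how their measurements spread. The mean difference between neighbouring arrays was 0.20 for AT5G65360, 0.15 for AT1G13370 and 0.18 for AT1G09200 on the log2 scale, close to the median of 0.22 over the 2441 probes above 0 on every array. Between the psag measurements, the SD of AT1G13370, 1.20, exceeded that of 97.0% of these probes, while in WT its SD of 0.08 exceeded that of only 3.93%. AT1G09200 had an SD of 0.24 in psag, above 23.4% of probes, and of 0.46 in WT, above 83.8%. AT5G65360 had an SD of 0.24 in psag, above 23.6% of probes, and of 0.11 in WT, above 9.22%. The psag ranks depended on psag replicates 7 and 8, with which the median SD of these probes was 0.39 in psag, against 0.19 without them. In that setting, chosen after seeing the data, the psag SD was 0.28 for AT5G65360, 0.29 for AT1G09200 and 0.37 for AT1G13370, above 75.0%, 77.4% and 87.4% of probes.

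The distance of psag replicates 7 and 8 to the average of psag replicates 1 to 6 was -2.33 on the log2 scale for AT1G13370. That is 5.03-fold lower on this normalized scale. The deposited intensities of these arrays were 0.337 and 0.227, against a mean of 2.38 over psag replicates 1 to 6. On the log2 scale the distance was 0.15 for AT5G65360 and 0.01 for AT1G09200. Over the whole array, 209 of 3438 probes, or 6.08%, were at least 4-fold away from the other psag measurements in this measurement, 157 of them lower. AT1G13370 was among them, the 102nd from the lowest end. The part of these arrays' lower intensity sums in that value was not tested.

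**Figure D4:**
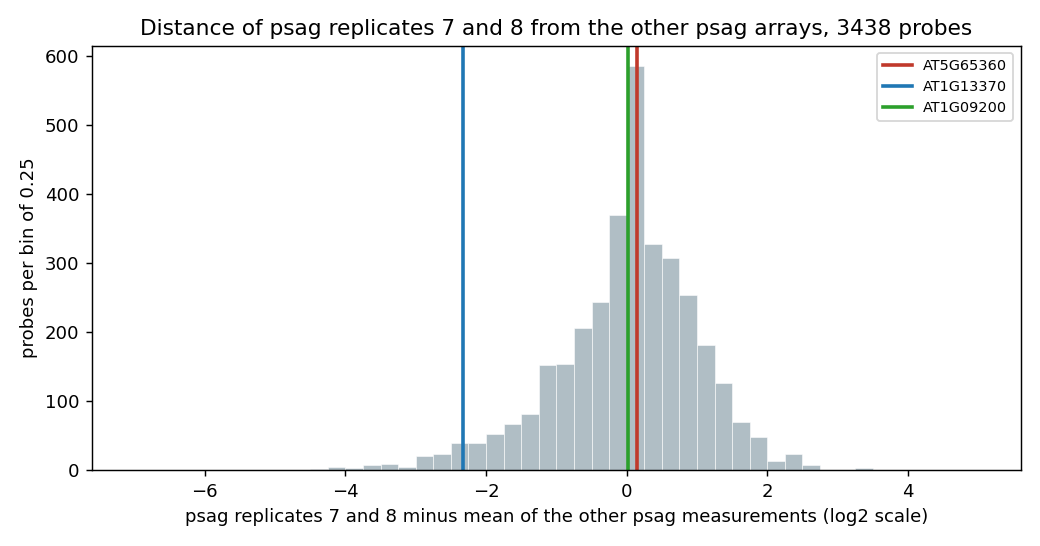
Number of probes (vertical axis, bins of 0.25) by the log2 difference between psag replicates 7 and 8 and the mean of the other psag measurements (horizontal axis), over 3438 probes, with lines at the 3 histone H3 loci. AT1G13370 lies at -2.33 in the lower tail, while AT5G65360 at 0.15 and AT1G09200 at 0.01 lie at the centre.

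Other genes of the pathway could scarcely be identified on the array. No gene was assigned to 1877 of the 3439 probes, and several genes were assigned to 870. Of 81 loci listed for other core and linker histones, histone chaperones, DNA replication and the cell cycle, and H3-modifying enzymes, 0 had a probe of their own, and 3 of the 14 listed H3 family loci did. Markers of dividing tissue were therefore not analysed here beside the H3.1 values.

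The genes whose measurements followed each H3 locus most closely were sought among 583 other single-gene probes listed at 0 on at most 8 of the 16 arrays, by Pearson's r over the 8 measurements, which share arrays and normalization and fall into 2 genotypes. For AT5G65360 they were AT2G15440 (r = 0.905), SIS (r = 0.892) (the symbol of AT5G02020) and AT5G66780 (r = 0.885). Without psag replicates 7 and 8 these values were 0.919, 0.862 and 0.854, and the genes then ranked 3, 8 and 10 in likeness. Their differences between genotypes were 0.47, 0.77 and 0.59, a direction that choosing them by likeness to AT5G65360 largely fixes.

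For AT1G13370 the closest were AT4G13680 (r = 0.988), AT5G40030 (r = 0.984) and AT4G04370 (r = 0.983). These likenesses rested largely on psag replicates 7 and 8, without which r was 0.787, 0.749 and 0.646 and the ranks were 6, 12 and 34. In those arrays AT5G40030 was at -1.51, against a mean of 2.05 over the other psag measurements. For AT1G09200 the closest were AT4G39760 (r = 0.903), AT4G35660 (r = 0.841) and AT4G16060 (r = 0.820), with 0.941, 0.852 and 0.824, and ranks of 3, 7 and 14, without psag replicates 7 and 8. AT4G39760 averaged -2.47 ± 0.27 in psag and -2.40 ± 0.37 in WT (SD, n = 4 each).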

How the data were processed

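Microarray values of 8 psag and 8 WT arrays were analysed. The deposited intensities run from 0 to 100 and were read as linear, from the values themselves. The authors' scanning, background correction and scaling are not given in the sources used here. The number of arrays limits the precision. Probe names came from GEO's platform annotation and a RefSeq gene table, which held 690 of the 692 single-gene probes. No genome build of the probes is named in those sources, so positions are left out, and sequences of these loci were not used here.

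Intensities were taken as log2 after adding 0.0407, the 5th percentile of positive values, quantile normalized over all 16 arrays, and averaged over neighbouring replicates. Of 2 probes for 1 locus the brighter was kept. All 3438 probes were fitted with limma 3.58.1 in R 4.3.3 (lmFit, eBayes). The procedure was tried on simulated data with independent noise and an equal spread in both genotypes. That trial held no outlying arrays or repeats, so it does not bear on their effect here. P-values cover only the spread among these measurements, part of which may be technical. Deviations of neighbouring arrays from their group mean correlated at 0.45 to 0.73 in psag and at -0.12 to 0.54 in WT. The averaging was adopted from earlier work on these data and is weakly founded for WT. For psag these correlations cannot decide it, because the outlying arrays shift the group mean and no values for non-neighbours are given. Same-numbered arrays of psag and WT correlated at 0.051 to 0.21, and the labels state no pairing. The main tests therefore took no account of the numbers, which does not exclude a pairing. Results with the number as a block are given below. Genes were named by rule: all 3 H3 loci, the 3 single-gene probes most like each by Pearson's r, and measured members of the lists. The members, lists and tests were chosen with earlier results of these data known. Alternatives covered the pseudocount, normalization, dim probes, replication, blocks, variance model, array weights and left-out arrays, with the normalization kept.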

Additional observations from a re-analysis of the deposited data

How the results depend on the processing

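The difference of AT5G65360 was positive under all 36 alternatives, from 0.50 to 0.69 on the log2 scale (limma, adjusted p = 0.00360 to 0.419). It passed in 2 of them, at 0.58 each: with 16 arrays as separate replicates, and with the replicate number as a replicate block on 16 arrays (limma, adjusted p = 0.0213). AT1G13370 was negative and did not pass in all 36, from -0.99 to -0.085, the value nearest 0 being that with array weights. AT1G09200 passed in none of 36. Its difference changed sign when arrays were left out, with a range of -0.21 (without WT replicates 3 and 4) to 0.15 (without WT replicates 7 and 8). The shift of AT5G65360 against AT1G13370 stayed at 1.29 and passed over 16 separate arrays (exact permutation, adjusted p = 0.00280). It also passed with the replicate block on them (exact sign-flip test, adjusted p = 0.0234). Under a replicate block, shifts were tested by flipping the signs of the psag minus WT differences within numbers. The shift of AT5G65360 against AT1G09200 stayed at 0.56 and passed over 16 arrays (exact permutation, adjusted p = 0.0322). With the averaged measurements joined by number as a replicate block, no H3 locus passed (AT5G65360 at limma adjusted p = 0.333). No shift between loci passed either (exact sign-flip test, adjusted p = 0.25 each). For AT5G65360 against AT1G13370 the exact sign-flip p was 0.125, the smallest that 4 such pairs allow. Own-number correlations were the highest for 6 of 8 arrays in each genotype, a hint from the data and not the design.

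The count of 11 probes past the threshold was 6 with the pseudocount at the 1st percentile, 0 with median centring, 3 without the dimmest 25% of probes, 2 without probes listed at 0 on all arrays, 4 with limma-trend, 102 with array weights, 102 with neighbouring arrays as a random block, 330 with 16 separate arrays, 1 with the replicate block on averaged pairs and 287 with it on 16 arrays. Leaving out arrays or neighbouring pairs gave 0 to 89. The pair psag 7 and 8 gave 89, psag 5 and 6 gave 4, psag 3 and 4 gave 2 and psag 1 and 2 gave 0, while WT 3 and 4 gave 1 and each remaining WT pair gave 0. Among single arrays, leaving out psag 7 gave 3, WT 1 and WT 4 gave 5 each and WT 8 gave 7. The cause was not tested.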

Other observations

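In each genotype the 4 measurements of each H3 locus were examined for 1 value far from the other 3. The gap, as a share of the range, was 0.765 for AT5G65360 in WT, where replicates 1 and 2 were highest, 0.737 for AT1G13370 in psag, where replicates 7 and 8 were lowest, and 0.727 for AT1G09200 in WT, where replicates 3 and 4 were lowest. None of the 6 groups exceeded Dixon's bound, which chance passes in about 1 of 20 groups.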
